A study of Mus musculus with 5 samples.

Results

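Whole-lung expression of 9 genes of tissue repair signalling was followed across 5 mouse strains. They were the TGF-beta ligand genes Tgfb1, Tgfb2 and Tgfb3, the receptor genes Tgfbr1 and Tgfbr2, the matricellular genes Ccn1, Ccn2 and Thbs1, and the fibronectin gene Fn1. Members were all probe sets whose only gene symbol in the platform annotation was one of these 9 names, which gave 22 of 45101 probe sets, or 9 of 18194 genes. Another probe set carries the symbols Pald1 and Thbs1 together and was not counted as a member. The floor used here was an intensity of 64 in at least 1 array. It was passed by 18 of the 22, and each of the 9 genes had at least 1 of these.

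The arrays came from untreated female mice of the strains C57 (C57BL/6J), 4B(+/+), 4B(-/-), 4D(+/+) and 4D(-/-). The names 4B and 4D stand for PDE4B and PDE4D, enzymes that break down cyclic AMP, with (+/+) for the wild-type line and (-/-) for the knockout. They began on a mixed C57BL/6 and 129/Ola background and had at least 11 backcross generations to C57BL/6J, so even their wild types are lines apart from C57. Each strain had 1 array, made from RNA of 3 lungs mixed together, chosen out of 5 after a quality check. No age is given in the sources used here, and no mouse had received elastase. With 1 array per strain no difference has a replicate check, no p-value is given, and the spread between animals is not known.

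The arrays had median intensities of 45.4 to 46.6, and their log2 values correlated with Pearson coefficients of 0.976 to 0.991 across 11500 genes, which are not independent replicates. All 8 genes listed as lung markers were over the floor, with summed intensities of 88622 to 92036. Skeletal muscle markers differed widely. Their 8 genes summed to 31591 in 4D(+/+), against 3157 to 7032 elsewhere. The knocked-out genes kept a signal. Pde4d gave 386 in 4D(-/-), against 456 to 523 elsewhere, and the 3 Pde4b probe sets gave 457, 397 and 164 in 4B(-/-), against 438 to 558, 461 to 490 and 199 to 259 elsewhere. The positions of the deletions are not given, so these probes do not check the labels.

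TGF-beta ligands are secreted in a latent form, held in the matrix by latent TGF-beta binding proteins and released by integrins or by thrombospondin-1, the product of Thbs1. The free ligand joins the type II receptor, Tgfbr2, to the type I receptor, Tgfbr1, which phosphorylates SMAD transcription factors. Fibronectin, collagens and CCN2 are among the classical products of that signal, and CCN1 and CCN2 are also induced quickly by growth factors and by mechanical tension through YAP and TEAD factors. In lung this system serves repair and, when it persists, fibrosis.

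The 3 ligand genes varied little between strains. Tgfb1, the ligand most often tied to fibrosis, read 69.4 in C57, 74.2 in 4B(+/+), 67.9 in 4B(-/-), 66.6 in 4D(+/+) and 69.5 in 4D(-/-). These values lie close to the floor and span 1.11-fold from the lowest to the highest array. Its other probe set stayed under the floor, at 19.1 to 25.4. Tgfb3, a ligand of palate and lung development, was lowest in C57 at 315 and highest in 4D(-/-) at 368, with 355 in 4B(+/+), 346 in 4B(-/-) and 329 in 4D(+/+).

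Tgfb2, which encodes the ligand most dependent on the co-receptor betaglycan, had 4 probe sets over the floor. The brightest read 419 in C57, 382 in 4B(+/+), 358 in 4B(-/-), 353 in 4D(+/+) and 405 in 4D(-/-). C57 was the highest array in 3 of the 4 probe sets, and 4D(-/-) was the highest in the dimmest of them, at 89.6 against 82.1 in C57. All 4 probe sets read lower in 4D(+/+) than in 4D(-/-), by 1.06-fold to 1.39-fold. In 4B(-/-) the dimmest probe set read 54.3, which is under the floor and 1.51-fold below C57, whereas the brightest differed from C57 by 1.17-fold.

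The receptor genes also spanned narrow ranges. Tgfbr1, the kinase that signals, read 926 in C57, 940 in 4B(+/+), 820 in 4B(-/-), 837 in 4D(+/+) and 1075 in 4D(-/-). The knockout arrays thus stood at both ends, 4D(-/-) 1.29-fold above its wild-type line and 4B(-/-) 1.15-fold below its own. Tgfbr2, the ligand-binding receptor, read 3736 in C57, 3463 in 4B(+/+), 3428 in 4B(-/-), 2999 in 4D(+/+) and 3712 in 4D(-/-). Here 4D(+/+) was the array apart, 1.24-fold below 4D(-/-) and, on the log2 scale, at -0.32 from C57. A dimmer Tgfbr2 probe set gave 67.3 in 4D(+/+) and an equal 72.8 in each of the other 4.

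**Figure D1:**
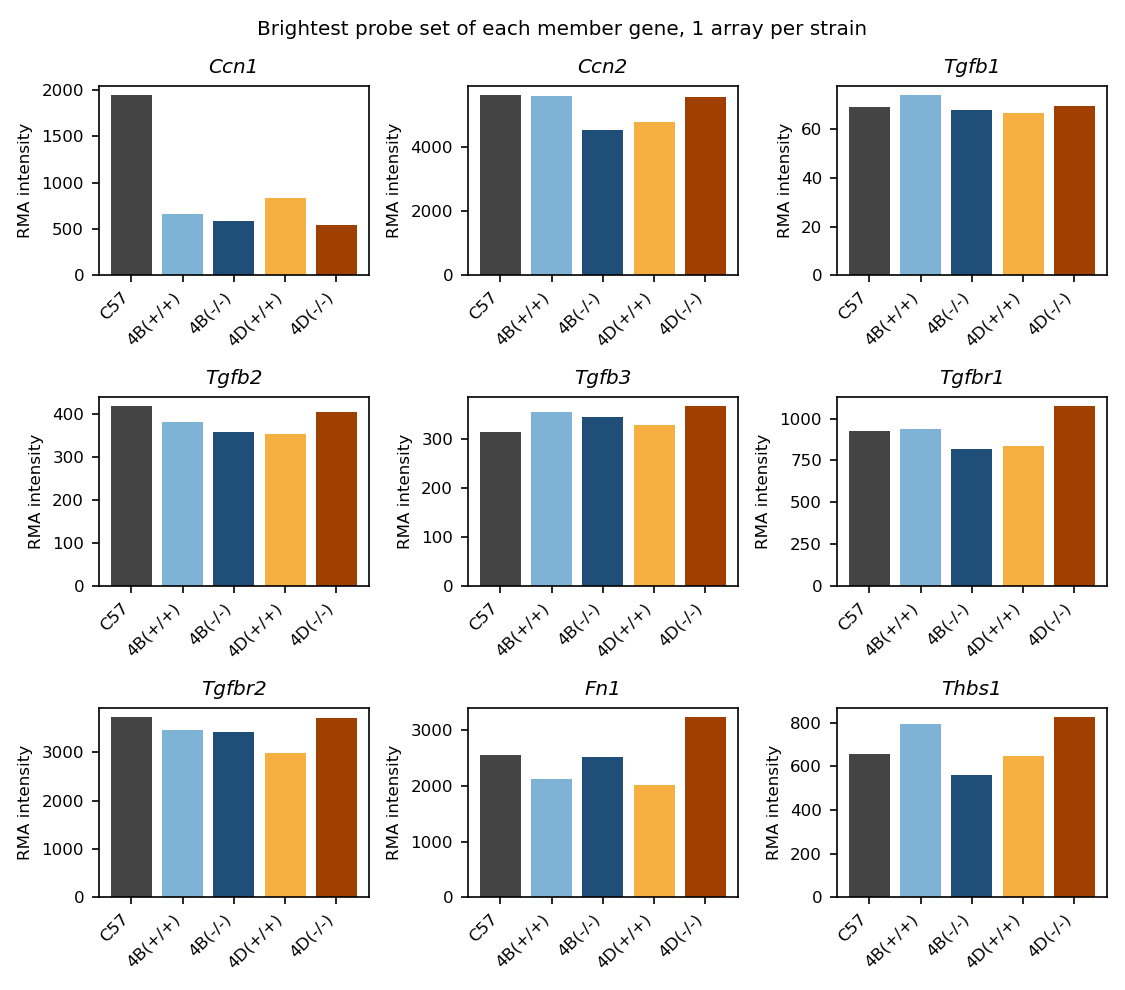
Intensity of the brightest probe set of each member gene (linear scale, 1 bar per array, 1 array per strain, so no error bars). Ccn1 is highest in C57 at 1947, Fn1 is highest in 4D(-/-) at 3240, and Thbs1 is lowest in 4B(-/-) at 563. The vertical scales differ between genes and are not to be compared.

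Ccn1, a secreted matricellular protein and an early response gene, varied most of the 9. Its brightest probe set read 1947 in C57, 659 in 4B(+/+), 589 in 4B(-/-), 837 in 4D(+/+) and 544 in 4D(-/-). C57 therefore stood above every other array, by 2.33-fold over 4D(+/+) to 3.58-fold over 4D(-/-). Only 0.322% of the 11500 genes over the floor had C57 at least 1.5-fold above each of the other 4 arrays. Ccn1 was alone among the 9 members in this, and its range over the arrays was wider than that of 99.0% of those genes.

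The 4 probe sets of Ccn1 fell into 2 pairs. The probe set 1438133_a_at repeated the pattern of the brightest, 1416039_x_at, with 1227 in C57, 429 in 4B(+/+), 393 in 4B(-/-), 551 in 4D(+/+) and 372 in 4D(-/-). The dimmer pair did not show the high value of C57. Probe set 1442340_x_at read 131 in C57, 136 in 4B(+/+), 105 in 4B(-/-), 167 in 4D(+/+) and 136 in 4D(-/-), and 1457823_at read 95.0, 118, 78.5, 137 and 111 in the same order. Both dimmer probe sets are annotated to 1 other transcript record and were highest in 4D(+/+) and lowest in 4B(-/-). The part of the transcript that each reads was not analysed here. With the median of its 4 probe sets as the value of the gene, Ccn1 stood at -0.73 from C57 in 4B(+/+) and at -0.41 in 4D(+/+) on the log2 scale, and the value in 4D(+/+) no longer passed 1.5-fold.

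Within the PDE4D line, Ccn1 was 1.54-fold lower in 4D(-/-) than in 4D(+/+) by the brightest probe set and 1.48-fold, 1.23-fold and 1.23-fold lower by the others. Within the PDE4B line it was 1.12-fold lower in the knockout by the brightest probe set and 1.51-fold lower by 1457823_at. The direction was the same in all 4 probe sets in both lines.

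**Figure D2:**
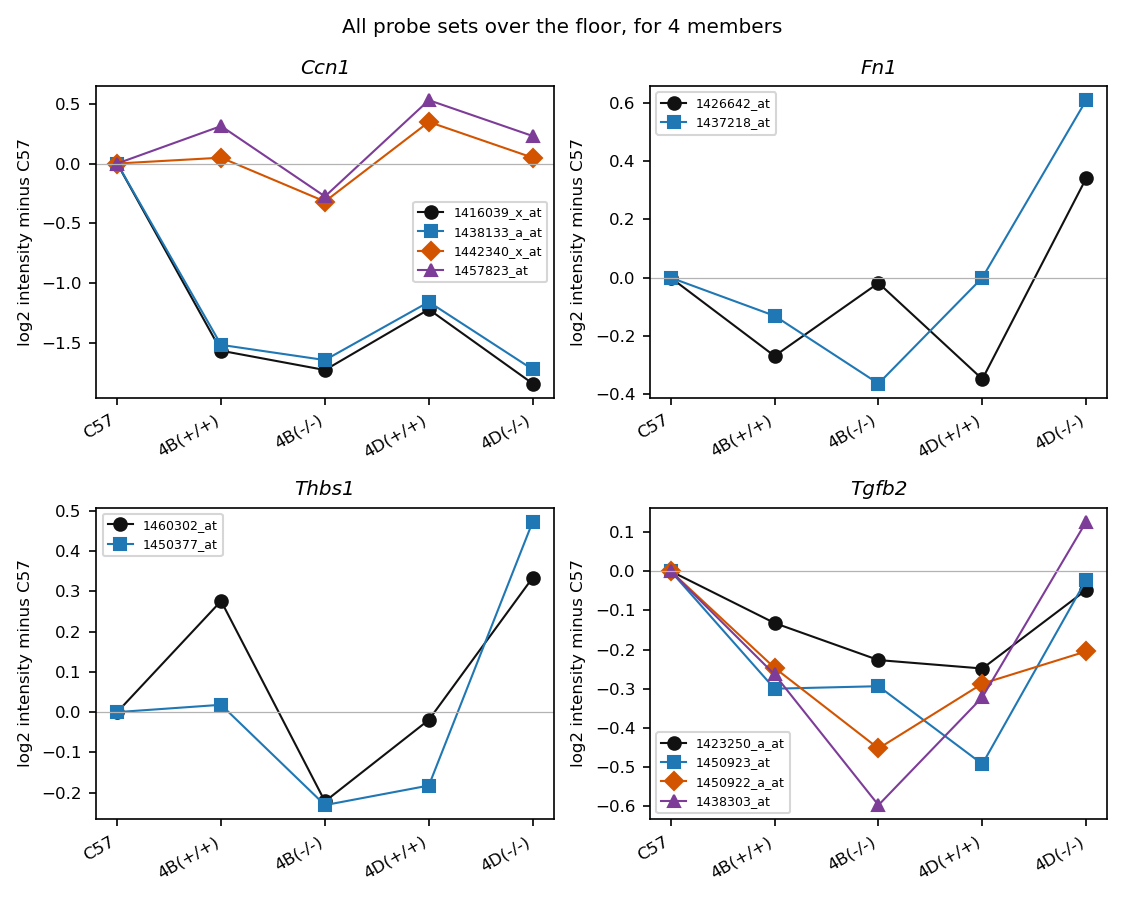
Log2 intensity minus that of C57 for every probe set over the floor of Ccn1, Fn1, Thbs1 and Tgfb2 (1 array per strain; a line joins the values of 1 probe set). For Ccn1 the 2 brighter probe sets lie between -1.16 and -1.84 in the 4 lines, while the 2 dimmer ones lie between -0.32 and 0.53.

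Promoter sequences were read because cyclic AMP acts on transcription through CREB, and Ccn1 differed most between strains. They come from RefSeq, build GRCm38.p6, and run from 250 bases before the annotated start to 50 after it, 5′ to 3′ on the strand of the gene. Promoters were available for 5 of the 9 members, and all 5 were searched. The sequences printed are those of Ccn1 and Tgfb2, the only ones of the 5 with the short cyclic AMP element marked below. They thus do not stand for all 5. The Ccn1 promoter lies at chr3:145649936-145650235 and that of Tgfb2 at chr1:186705940-186706239, both on the minus strand. Capitals mark the short cyclic AMP element (TGACG or its reverse) and the TEAD element (GGAATG or its reverse).
Ccn1: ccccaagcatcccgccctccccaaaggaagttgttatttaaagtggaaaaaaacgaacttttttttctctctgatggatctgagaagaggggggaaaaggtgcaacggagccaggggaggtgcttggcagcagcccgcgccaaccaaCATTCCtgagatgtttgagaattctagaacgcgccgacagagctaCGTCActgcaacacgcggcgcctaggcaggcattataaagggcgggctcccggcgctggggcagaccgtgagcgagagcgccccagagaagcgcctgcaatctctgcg
Tgfb2: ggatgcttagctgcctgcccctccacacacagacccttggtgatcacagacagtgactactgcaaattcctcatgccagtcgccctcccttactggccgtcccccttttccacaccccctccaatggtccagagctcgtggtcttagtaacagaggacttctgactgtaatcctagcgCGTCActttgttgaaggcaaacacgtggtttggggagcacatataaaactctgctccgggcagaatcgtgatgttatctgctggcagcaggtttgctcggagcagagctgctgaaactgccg

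Each printed promoter held the short cyclic AMP element once, at -58 in Ccn1 and at -72 in Tgfb2, counted from the start site, and those of Tgfb1, Tgfbr1 and Tgfbr2 held none. It occurs on either strand in 20.8% of 32851 promoters of this length. The full palindrome TGACGTCA, which contains the short form, was found in 1.79% of promoters and in neither of these. The TEAD element, at -103 in Ccn1, occurs in 14.7% of promoters. A TATA box (TATAAA, either strand) lay at -25 in Ccn1 and at -31 in Tgfb2, and occurs in 13.6%. The SMAD element CAGAC (either strand), found in 49.6% of promoters, lay at 4 in Ccn1, at -221 and -204 in Tgfb2, at -203 in 1 of the 2 Tgfbr1 entries and at -160 in Tgfbr2. The AP-1 element TGANTCA (7.81% of promoters) and the CArG box (1.63%) had no match in either window. A match describes the letters of the window and is not evidence of binding.

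Ccn2, known as connective tissue growth factor, read 5604 in C57, 5582 in 4B(+/+), 4512 in 4B(-/-), 4777 in 4D(+/+) and 5556 in 4D(-/-). Its 1 probe set thus formed a higher group of 3 arrays within 1.01-fold and a lower pair, 4B(-/-) and 4D(+/+). The knockout differences ran opposite ways, 1.24-fold lower in 4B(-/-) and 1.16-fold higher in 4D(-/-). Ccn2 did not share the high value of Ccn1 in C57.

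Thbs1, the TGF-beta activator thrombospondin-1, separated the 2 knockouts in both of its probe sets. The brighter, 1460302_at, read 656 in C57, 794 in 4B(+/+), 563 in 4B(-/-), 647 in 4D(+/+) and 827 in 4D(-/-). The dimmer, 1450377_at, read 237, 240, 202, 209 and 328 in the same order. Each was lowest in 4B(-/-) and highest in 4D(-/-), and the 3 wild-type arrays lay between. Against their own wild-type lines, 4B(-/-) was 1.41-fold and 1.19-fold lower, and 4D(-/-) was 1.28-fold and 1.58-fold higher. Platelets, which store thrombospondin-1, had 4 of 6 marker genes over the floor (Gp9 and Gp1bb were below it). All 6 together summed to 828 in C57, 905 in 4B(+/+), 939 in 4B(-/-), 966 in 4D(+/+) and 735 in 4D(-/-). The part of platelets in the Thbs1 values was not tested.

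Fn1, which encodes the matrix glycoprotein fibronectin, was highest in 4D(-/-). The brighter probe set, 1426642_at, read 2558 in C57, 2123 in 4B(+/+), 2526 in 4B(-/-), 2010 in 4D(+/+) and 3240 in 4D(-/-). In 4D(-/-) it was 1.61-fold above 4D(+/+), 1.53-fold above 4B(+/+), 1.28-fold above 4B(-/-) and 1.27-fold above C57. The size of the knockout difference therefore rests in part on 4D(+/+), the lowest array, and with C57 as reference it no longer passed 1.5-fold. The dimmer probe set, 1437218_at, read 42.7, 39.0, 33.2, 42.7 and 65.1 in the order of the strains above, and was over the floor through the 4D(-/-) array alone. In 4B(-/-) the brighter probe set was 1.19-fold above 4B(+/+), and the dimmer was under the floor in both.

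Other measures moved beside Fn1. Of 6 alveolar macrophage markers over the floor, Marco, Fabp1 and Chil3 were at least 1.5-fold higher in 4D(-/-) than in 4D(+/+), and 0 were lower by as much. Of all genes, 1.1% were higher and 4.53% lower. The summed intensity of the 6 was 10449 in 4D(-/-), 7178 in 4D(+/+) and 8144 to 9201 in the others. The 7 fibroblast markers summed to 19686 in 4D(-/-) and 18851 in 4D(+/+), with 0 past 1.5-fold. The 8 skeletal muscle and 4 fat markers were all lower in 4D(-/-), with median log2 differences of -2.46 and -2.54. The ratio of the Gapdh control probe sets near the 3′ and 5′ ends, a sign of RNA quality, was 1.31 in 4D(+/+) and 1.77 in 4D(-/-), while the actin ratio was 1.83 and 1.86. The part of these in the Fn1 difference was not tested, and in whole lung a change in the number of cells and in RNA per cell cannot be told apart.

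The loss of PDE4B was compared with its own wild-type line. In 4B(-/-), 0 of 9 members were higher and 0 lower by at least 1.5-fold, against 0.383% and 0.93% of all genes. Small differences leaned down. The value was below 4B(+/+) in 8 of 9 members, Fn1 being the exception, and in 39.8% of all genes, with a median log2 difference of -0.13 over the members and 0.01 over all genes. Thbs1 (-0.50) and Ccn2 (-0.31) differed most. Among the 5 arrays 4B(-/-) was alone the lowest for Ccn2, Tgfbr1 and Thbs1, a rank that 18.9% of genes had.

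The same comparison for PDE4D leaned the other way. In 4D(-/-), Fn1 was higher and Ccn1 lower by at least 1.5-fold than in 4D(+/+), which is 1 of 9 each way against 1.1% of all genes higher and 4.53% lower. The other 7 members were between 0.06 and 0.36 higher on the log2 scale, so 8 of 9 were above 4D(+/+), as were 45.6% of all genes. The median was 0.22 over the members and 0.00 over all genes. Tgfb3, Tgfbr1, Fn1 and Thbs1 were alone the highest in 4D(-/-) of the 5 arrays, a rank that 17.9% of genes had. Against C57, 5 of 9 members were higher in 4D(-/-) and their median was 0.00, since 4D(+/+) itself lay below C57 in 8 of 9.

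**Figure D3:**
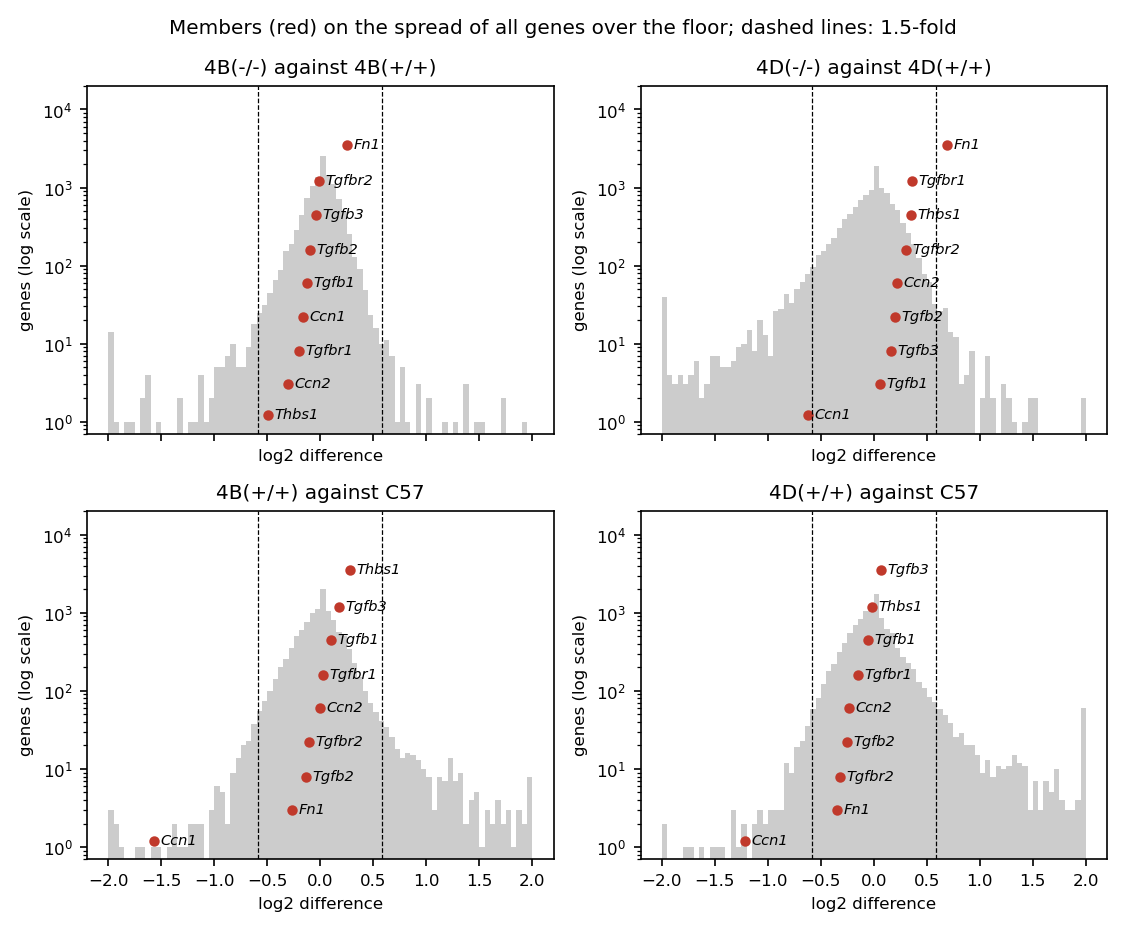
Log2 difference of the 9 members (red points, spaced vertically for legibility only) on the histogram of the 11500 genes over the floor (logarithmic count axis; differences beyond 2 either way are drawn in the end bins). Dashed lines mark 1.5-fold. In 4B(-/-) all 9 members lie inside the lines, in 4D(-/-) Fn1 and Ccn1 lie outside them on opposite sides, and in both wild-type lines Ccn1 lies outside on the lower side.

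The wild-type lines were set against C57 to show what they carried without a knockout. These comparisons share the C57 array. In 4B(+/+), Ccn1 was the 1 member past 1.5-fold, 2.96-fold lower, against 1.33% of genes lower and 2.23% higher. In 4D(+/+), Ccn1 was again the 1 member, 2.33-fold lower, against 1.24% lower and 4.25% higher. The other 8 members lay within 1.27-fold of C57 in both lines, and the lowest of these was Fn1 (1.21-fold and 1.27-fold lower). The highest was Thbs1 in 4B(+/+), 1.21-fold above C57, and Tgfb3 in 4D(+/+), at 0.07 on the log2 scale. The knockout arrays against C57 gave Ccn1 alone as well, 3.31-fold lower in 4B(-/-), where 3.57% of genes were lower and 2.53% higher, and 3.58-fold lower in 4D(-/-), where 0.791% were lower and 1.37% higher. C57 was alone the highest array for Ccn1, Ccn2, Tgfb2 and Tgfbr2, a rank that 26.0% of genes had.

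Other immediate early genes were also lower outside C57. Of 16 such genes over the floor, 6 were at least 1.5-fold lower in 4B(+/+), 12 in 4B(-/-), 6 in 4D(+/+) and 6 in 4D(-/-), and 0 were higher in any of these. Of all genes, 1.33%, 3.57%, 1.24% and 0.791% were lower by as much in the same arrays. The median log2 difference of the 16 from C57 was -0.41, -0.72, -0.44 and -0.42. Egr3, a zinc finger factor of the early response, read 227 in C57, 50.7 in 4B(+/+), 20.2 in 4B(-/-), 78.4 in 4D(+/+) and 99.0 in 4D(-/-), with the values of 4B(+/+) and 4B(-/-) under the floor. Egr2, of the same family, read 121, 86.8, 46.2, 77.8 and 107 in the same order, and Egr1 3115, 815, 541, 1006 and 866. Within the lines, the list and Ccn1 compared as follows. In 4B(-/-) against 4B(+/+) the list had a median of -0.38 and 5 lower genes, where 0.93% of all genes were lower. The 5 include Egr3, under the floor in both arrays, and Egr2, under it in 4B(-/-). Ccn1 stood at -0.16 by its brightest probe set, close to Junb and Klf6 of the list (-0.16 each). Its other probe sets stood at -0.13, -0.37 and -0.59. In 4D(-/-) against 4D(+/+) the list had 0.02 and 1 lower gene, the stress factor Atf3, where 4.53% of all genes were lower. Ccn1 stood at -0.62 in that comparison by its brightest probe set, and at -0.56, -0.30 and -0.30 by the others.

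**Figure D4:**
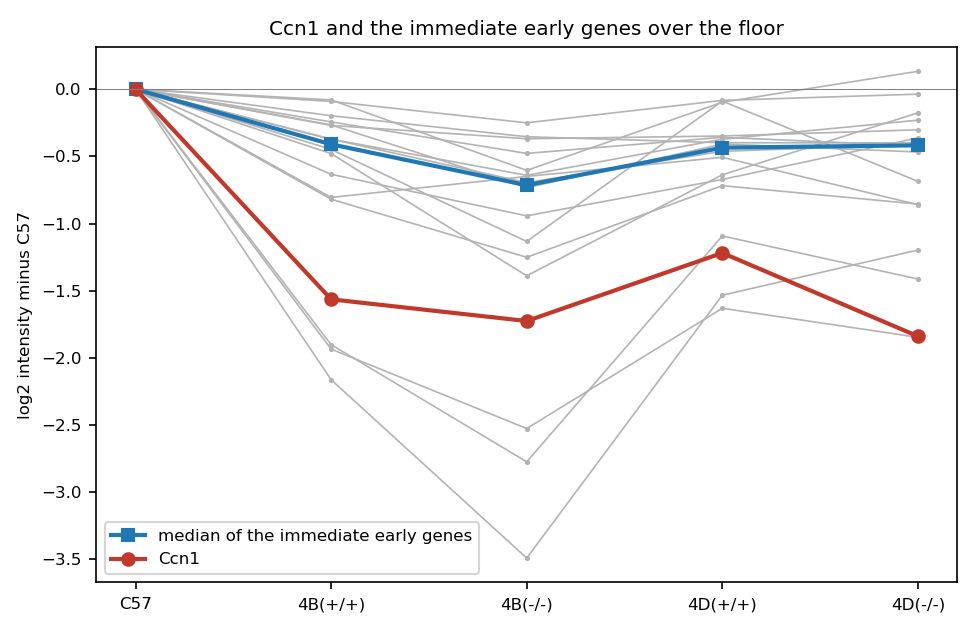
Log2 intensity minus that of C57 for Ccn1 (red, brightest probe set), 16 immediate early genes over the floor (grey) and their median (blue), by array (1 per strain; lines join values of 1 gene). The median lies between -0.41 and -0.72 in the 4 lines and Ccn1 between -1.22 and -1.84.

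The genes whose pattern over the 5 arrays was closest to that of the 2 members spanning at least 1.5-fold were found by the root mean square difference of centred log2 values. For Ccn1 these were Prdm8 (0.16), the clock output factor Hlf (0.19) and the clock gene Per3 (0.22). Prdm8 passed the floor through C57 alone, at 133 against 44.8 to 54.6 in the others, so the floor favoured its likeness to a pattern high in C57. Per3 read 385 in C57, 106 in 4B(+/+), 92.1 in 4B(-/-), 111 in 4D(+/+) and 108 in 4D(-/-). For Fn1 they were Cdca4, the matrix metalloproteinase Mmp19 and the laminin chain Lama3, each at 0.05. Lama3 read 642, 547, 619, 540 and 787 in the same order.

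The rest of the pathway was described with a list of 78 other genes, of which 72 were over the floor. In 4B(-/-), 0 of the 72 were past 1.5-fold, around a median log2 difference of 0.02, against 0.383% of all genes higher, 0.93% lower and a median of 0.01. In 4D(-/-), 3 were higher and 0 lower than in 4D(+/+), around a median of 0.15, against 1.1% and 4.53% of all genes and a median of 0.00. All 3 belong to the 17 TGF-beta-induced genes over the floor. Type I collagen Col1a1 was 2.03-fold higher, elastin (Eln) 1.92-fold and the cell cycle inhibitor Cdkn1a 1.87-fold. With C57 as reference the same 3 were higher, against 1.37% of all genes. The median of the 72 was then 0.00, against -0.02 over all genes. Col1a1 read 586 in C57, 492 in 4B(+/+), 552 in 4B(-/-), 547 in 4D(+/+) and 1111 in 4D(-/-), so 4D(-/-) stood apart from the other 4. Eln read 403, 439, 616, 393 and 754 in the same order and was higher in both knockouts than in the 3 wild-type arrays. Cdkn1a, which many stress signals also induce, was lowest in C57 at 731 and highest in 4B(-/-) at 2203, with 1918 in 4B(+/+), 1145 in 4D(+/+) and 2143 in 4D(-/-).

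Smooth muscle genes, of which Tagln and Acta2 are also in the TGF-beta-induced list, were not higher in 4D(-/-) than in 4D(+/+). Tagln, an actin-binding protein, read 2301 in 4D(-/-) and 3110 in 4D(+/+), and Acta2, smooth muscle actin, 7228 and 7534. The 5 smooth muscle markers over the floor had a median of -0.44 in 4D(-/-) against 4D(+/+), led by Des and Cnn1 at -0.53 each, with 0 past 1.5-fold. Against C57 the median was -0.17, with Des at -0.06 and Cnn1 at -0.39, so the size depends on the reference. Des was highest in 4D(+/+), at 1063, where the skeletal muscle markers summed to 31591, against 6767 in 4D(-/-). The part of TGF-beta signalling, smooth muscle and skeletal muscle in these values was not tested. Genes of ligand storage and activation had 0 of 9 past 1.5-fold in both knockouts, and the median was -0.03 in the PDE4B line and 0.27 in the PDE4D line. For 4D(-/-) against C57 the median was 0.15. In 4D(-/-), Ltbp2, a latent TGF-beta binding protein family member, came closest, at 791 against 531 in 4D(+/+) and 591 in C57.

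Signal transducers and brakes showed smaller differences. Of the 5 SMAD genes over the floor 0 passed 1.5-fold in any comparison, and Smad2 and Smad3, the SMADs of the TGF-beta receptor, differed from their wild-type lines by 0.00 and 0.03 in 4B(-/-) and by 0.03 and 0.16 in 4D(-/-) on the log2 scale. Of 11 inhibitors, among them the inhibitory SMADs Smad6 and Smad7, 0 passed 1.5-fold. The same held for 9 co-receptors and related receptors. It also held for 10 genes listed as fibronectin receptors and partners, among them the thrombospondin-1 receptors Cd47 and Cd36. The medians of the co-receptor and fibronectin lists in 4D(-/-) were 0.11 and 0.14 against 4D(+/+), but -0.12 and -0.01 against C57. A list of 11 held relatives of CCN, genes regulated by YAP and TEAD, and the factors Yap1, Wwtr1 and Tead1 themselves. Of these 11, 0 passed 1.5-fold in either knockout against its wild-type line. Of all genes, 0.383% to 4.53% passed 1.5-fold each way, so counts of 0 in lists this short set none of them apart. Lats2, a kinase that restrains YAP, was 1.41-fold higher in 4D(-/-) than in 4D(+/+), and Ankrd1, a target of YAP, read 366 against 464. Both lay close to C57 in 4D(-/-), at 0.07 and 0.05 on the log2 scale, so these differences depend on the reference. In 4B(+/+), Lats2 read 675 and Ankrd1 471, against 878 and 366 in 4D(-/-). Ankrd1 in 4B(-/-) was 1.66-fold above C57, where 2.53% of all genes were higher. Chil3, Atf3, Junb, Klf6, Ltbp2, Lats2, Ankrd1, Tagln, Acta2 and the Smad genes named here were chosen after their values were seen.

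Against C57, Cdkn1a was the 1 pathway gene past 1.5-fold in 4B(+/+), 2.62-fold higher, where 2.23% of all genes were higher and 1.33% lower. In 4D(+/+) it was 1.57-fold higher, and Ccn5, a CCN relative, and Snai2, a repressor of epithelial genes, were 1.55-fold and 1.51-fold lower, where 4.25% of all genes were higher and 1.24% lower. The medians of all 72 were -0.06 and -0.10. Tissue markers differed more in these arrays. The 8 skeletal muscle markers were all higher in both wild-type lines, led by Acta1 and Ckm in 4B(+/+), and by Mylpf and Tnni2 in 4D(+/+), with medians of 1.05 and 3.24, and the 4 fat markers had medians of 1.87 and 2.08. Cartilage markers, 6 genes, had medians of 2.07 and 1.52. The part of this tissue in the differences of the members was not tested.

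**Figure D5:**
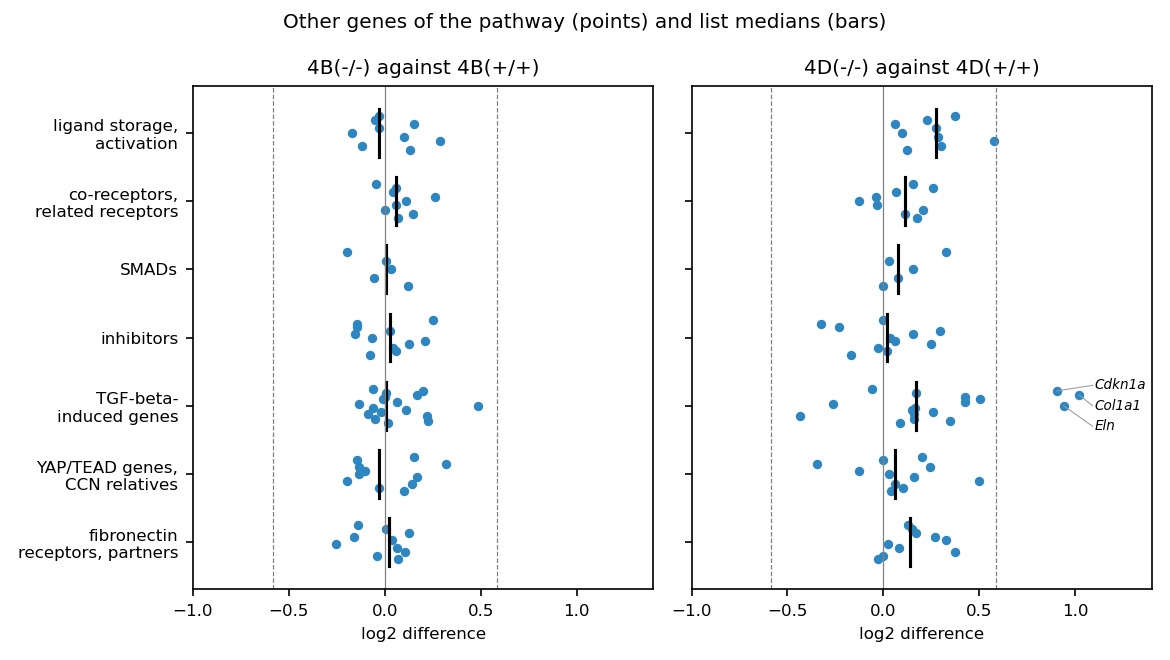
Log2 differences of the 72 other pathway genes over the floor in 4B(-/-) against 4B(+/+) and in 4D(-/-) against 4D(+/+), by list (points, spaced vertically for legibility; black bars are list medians; dashed lines mark 1.5-fold; 1 array per strain). The 3 genes outside the lines, Col1a1, Eln and Cdkn1a, are all in the list of TGF-beta-induced genes in 4D(-/-).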

How the data were processed

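Per the labels' protocols, pooled whole-lung RNA (0.3 µg) of each of 5 strains was amplified from the 3′ end and hybridised to 1 array. The deposited value is a linear intensity for each probe set, and the submitters' processing notes name RMA, which corrects background, equalises the arrays and summarises probes. Its version is not stated in those notes. In 59.7% of probe sets at least 2 arrays hold values equal to 6 decimals, so a difference can be exactly 0.

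Intensities were converted to log2. Of the 45101 probe sets, 34958 had a single symbol in the platform annotation, for 18194 genes. Each gene took its probe set with the highest mean log2 value, and 11500 genes reached an intensity of 64 in at least 1 array. Folds and counts at 1.5-fold were computed without a test, since each group has 1 array. The number of arrays limits the precision. Counting was tested on simulated data. Of 163 listed symbols 5 had no single-symbol probe set and were not analysed here.

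Named were all members, pathway genes past 1.5-fold, the 3 nearest patterns of members spanning 1.5-fold, and up to 2 genes of marker lists with absolute median log2 past 0.32. Members and lists were chosen with earlier results of these data known. Alternatives were other folds, floors, probe set summaries, references and normalizations (limma 3.58.1). References without the line's own wild type were added after the data were seen. Python 3.11.15 and R 4.3.3 were used.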

Additional observations from a re-analysis of the deposited data

Results flagged for a closer look

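Directions of the knockout differences were opposite in the 2 lines for 7 of 9 members. With 1 array per strain this was not tested, and 51.3% of the 11500 genes over the floor did the same. With C57 as the reference of both knockouts, the directions were opposite in 4 of 9 members (Tgfb1, Tgfbr1, Fn1 and Thbs1) and in 37.3% of genes. The log2 difference in the 4D line minus that in the 4B line was 0.85 for Thbs1 (0.35 and -0.50), 0.56 for Tgfbr1 (0.36 and -0.20), 0.53 for Ccn2 (0.22 and -0.31), 0.32 for Tgfbr2 (0.31 and -0.01), 0.29 for Tgfb2 (0.20 and -0.09), 0.20 for Tgfb3 (0.16 and -0.04) and 0.19 for Tgfb1 (0.06 and -0.13). Each of these 14 differences lies within 1.5-fold.

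The wild-type lines also differed from C57 in opposite directions in 3 members, again untested and with a shared C57 array, as did 13.1% of all genes. After cyclic loess Thbs1 in 4D(+/+) stood at 0.02 and was no longer opposite. The 4D line minus the 4B line gave -0.30 for Thbs1 (-0.02 and 0.28), -0.17 for Tgfbr1 (-0.15 and 0.02) and -0.16 for Tgfb1 (-0.06 and 0.10).

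The probe set annotated to both Pald1 and Thbs1, which no comparison above used, read 4982 in 4D(-/-), above the 3581 to 3869 of the 3 wild-type arrays, and 2283 in 4B(-/-). Which of its genes it reads is not known.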

How the results depend on the processing

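No paired analysis was possible because each strain has 1 array. Cyclic loess, quantile normalization, centring on the median and floors at log2 5, log2 7 or none left each of the 8 counts of genes past 1.5-fold within 1.5 times its value. Of 312 values of single members under alternatives, 54 moved by more than the median absolute difference of all genes. None that passed 1.5-fold changed direction, but 18 smaller ones did, 15 of them with another reference. With C57 as reference, Fn1 went from 0.25 to -0.02 and Tgfb3 from -0.04 to 0.14 (4B(-/-)), and Ccn2 from 0.22 to -0.01, Tgfb2 from 0.20 to -0.05 and Tgfbr2 from 0.31 to -0.01 (4D(-/-)). Of the 88 counts under all alternatives, those just named included, 25 moved, each with another threshold, probe set summary or reference. For members in 4B(-/-), the count of 0 became 1 at a log2 threshold of 0.32 (Thbs1), and 1 with C57, with all 3 wild types averaged or with the mean of C57 and 4D(+/+) as reference (Ccn1 each time). For members in 4D(-/-), the count of 2 became 4 at the 0.32 threshold, 0 at 2-fold, 1 with the median of probe sets (Fn1), and 1 with each of the same kinds of reference (Ccn1 each time), where Fn1 stood at 0.34, 0.55 and 0.48 on the log2 scale. In 4D(+/+) against C57, the count of 1 became 2 at the 0.32 threshold, 0 with the median of probe sets and 0 against the mean of C57 and 4B(+/+). Pathway genes in 4B(-/-) went from 0 to 1 at the 0.32 threshold, 5 with C57, 1 with the mean of 3 and 2 with the mean of C57 and 4D(+/+) as reference. In 4D(-/-) they went from 3 to 16 at the 0.32 threshold, 1 at 2-fold and 5 with the median of probe sets, in 4B(+/+) from 1 to 12 at the 0.32 threshold and 2 with the median of probe sets, and in 4D(+/+) from 3 to 13 at the 0.32 threshold, 0 at 2-fold and 0 against the mean of C57 and 4B(+/+). The cause of these shifts was not tested beyond the thresholds themselves. Tgfb1 lies near the floor, where folds are poorly determined.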
